A study of Mus musculus with 20 samples.

Results

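Mouse embryonic stem (ES) cells kept in tamoxifen for 4 days were compared with cells of the same age that had tamoxifen on day 1 only. The comparison rests on 4 of the study's 20 arrays, the 2 titled Day4 Tmx++++ (called continued here) and the 2 titled Day4 Tmx+--- (called withdrawn here), taken by their titles. The cells are line ES_ZERT #18, a single clone of V6.5 ES cells, which come from a C57BL/6 x 129/Sv hybrid. Every group, controls included, carries the pCAG-Zscan4-ERT2 transgene, driven by the CAG promoter, together with a neomycin-resistance gene, and was grown as a monolayer on gelatin in medium with serum and LIF. The dose was 200 nM. Continued cells had tamoxifen on days 1, 2, 3 and 4. Withdrawn cells had it on day 1 and then spent 3 days without it, so the contrast is that of 3 further days with or without the drug.

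The wider study followed the same clone on day 0 and days 1 to 4 in 10 groups of 2 arrays. Used here beside the day 4 groups are day 0, untreated cells of days 1 and 2, tamoxifen-treated cells of day 1, and both schedules on days 2 and 3. Whether the 2 samples of a group were grown separately is not stated in the labels. The p-values cover only the spread between the 2 samples of a group, pooled over the 10 groups. Part or all of that spread could be technical. The files give no gene name for any probe. The ES cell label therefore could not be checked against marker genes, the transgene could not be followed, and probes are described by identifier, by value and by sequence.

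Zscan4 genes encode proteins with a SCAN domain and zinc fingers. They are switched on in the early mouse embryo and, for short spells, in a small fraction of cultured ES cells, and are known for a part in keeping telomeres long. ERT2 is a mutant ligand-binding domain of the oestrogen receptor that holds a fused protein inactive until tamoxifen binds. Withdrawing the drug thus takes away the ligand while the transgene stays in place.

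On day 4, 3605 of the 29414 probes tested differed between the schedules, 12.3% of them (limma, Benjamini-Hochberg adjusted p under 0.05). Continued cells were lower at 1920 probes (6.53%) and higher at 1685 (5.73%). The falls were larger than the rises: of probes that differed at least 1.5-fold, 273 were lower and 95 higher, and at 2-fold or more 45 were lower and 6 higher. The median fall was 1.25-fold and the median rise 1.22-fold, and the central 95% of log2 differences over all probes lay between -0.38 and 0.31. Values are log2 ratios of the sample's signal over that of a common reference RNA on the same array, and differences are continued minus withdrawn.

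The 2 arrays of a schedule agreed closely. Across probes, which are not independent replicates, they correlated at r = 0.993 (withdrawn) and 0.994 (continued), and arrays of different schedules at 0.978 to 0.981. Among the called probes the difference between schedules was larger than both replicate gaps at 1666 of 1685 risers and 1910 of 1920 fallers, against 42.1% of all probes tested. The calls rest on these same differences and arrays, so the high shares follow largely from the calling. Between 28285 and 28957 of 42006 probes were well above background on each of the 4 arrays, and 3489 of the 3605 called probes were so on all 4. No called probe was saturated on a day 4 array.

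The common reference gave a background for the arrays and the hybridisation only, since the same reference RNA was on every array. Its signal alone differed between the continued and the withdrawn arrays at 4 probes (0.0136%, with 2185 at an unadjusted p under 0.05, limma). The sample's signal alone differed at 3180 (10.8%). Differences between cultures, or in the RNA or labelling of the samples, do not enter the reference signal, so its count cannot show them. All 4 arrays lay on 1 slide, the withdrawn pair at positions 1 and 2 and the continued pair at positions 3 and 4, so position and schedule cannot be told apart on this slide. On day 2 the positions were the other way round and 0 probes were called (821 at an unadjusted p under 0.05). On day 3 the layout was that of day 4 and 153 probes were called (0.52%), of which 43 were also called higher and 107 also called lower on day 4, and 0 in the opposite direction. The day 4 count was 2131 without the first withdrawn array, 2248 without the second, 1931 without the first continued array and 2345 without the second. With the local backgrounds left as scanned, which alters 1 untreated array and through it the shared estimate of spread, it was 1117, of which 34.2% were higher, against 46.7%.

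**Figure D1:**
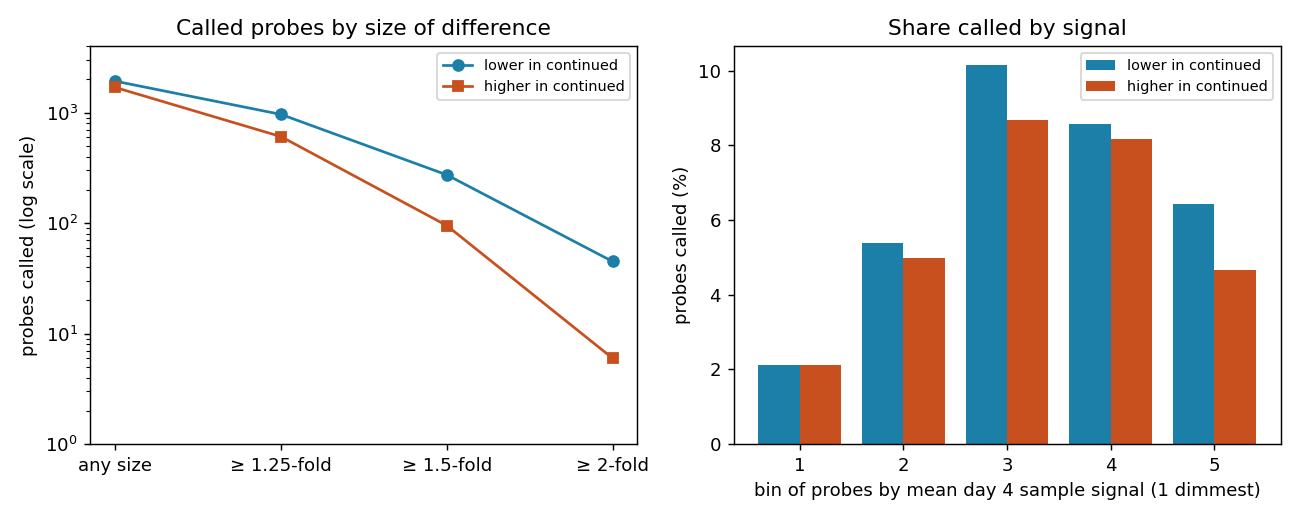
Left, probes called on day 4 (log axis) by the least fold difference required, lower (blue) and higher (orange) in continued cells. The lines part as the limit rises, from 1920 and 1685 at any size to 45 and 6 at 2-fold. Right, percentage of probes called in 5 equal bins of probes ordered by mean day 4 sample signal, with the highest shares in the middle bin.

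Changes were most frequent at middling signal. With the probes in 5 equal bins by day 4 sample signal, in the middle bin, 10.2% were lower and 8.69% higher, against 2.12% in each direction in the dimmest bin and 6.43% and 4.67% in the brightest. The middle bin also held 118 of the 273 falls of at least 1.5-fold and 46 of the 95 such rises. The dimmest bin held 1 and 3. A signal offset enters every ratio and shrinks the folds of dim probes.

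The sequences of the largest falls are given first, as their only identity here. Each is the middle 30 bases (bases 16 to 45) of a 60-base probe, read from the deposited files, 5′ to 3′, and no base is marked. The first 3 are probes that came back up after withdrawal, the fourth moved in opposite directions under the schedules, and the last 2 went on falling with the drug.
Z00015007-1: taggggtctttgattatttatagtatgact
Z00055024-1: gggcgtctcctacacactcgatgtcctgcg
Z00056656-1: ctctctgaacaagttgaaagtccaaataaa
Z00035520-1: tctcatgccagatttaaaactaaactggaa
Z00035779-1: aaatggtgaaagctagacttcataatgacc
Z00009923-1: atcctctccgtatctgatgaacacttgtgt

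The deepest difference was that of Z00015007-1, whose log2 ratio was 1.65 and 1.60 on the withdrawn arrays and -0.55 and -0.52 on the continued ones. That is a 4.46-fold lower level with the drug (limma log2 difference -2.16, SE 0.084, adjusted p = 5.6e-11). The groups lay far apart and each pair was tight. After withdrawal Z00055024-1 stood at 1.46 and 1.38, and with the drug at -0.46 and -0.41, 3.62-fold lower (log2 -1.86, SE 0.064, adjusted p = 2e-11). Z00035520-1 stood at -1.0 and -1.01 against -2.79 and -2.80, 3.46-fold lower (log2 -1.79, SE 0.070, adjusted p = 5.6e-11). The first 2 were above the reference in withdrawn cells and below it in continued cells, whereas Z00035520-1 was below it in both.

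The other 9 of the 12 largest falls ranged from 2.45-fold (Z00010781-1) to 2.69-fold (Z00074551-1). The withdrawn arrays gave Z00074551-1 0.63 and 0.60 and the continued arrays -0.73 and -0.90. Z00035779-1 was at -1.90 and -1.98 against -3.33 and -3.38, the lowest levels among the 24 probes named by size. Z00009923-1 was at -0.66 and -0.71 against -1.92 and -2.11. Continued and withdrawn values of these 12 probes do not overlap, which the rule that named them required. The same holds for 53.9% of all tested probes. The widest replicate gap was 0.30, for the withdrawn pair of Z00011824-1 (-0.46 and -0.16), whose continued arrays read -1.71 and -1.68. In the sample channel alone all 12 were called lower, with log2 differences of -2.36 to -1.36, while their reference signals differed by -0.15 to 0.05 and 0 of them were called. Of all probes, 10.8% were called in the sample channel and 0.0136% in the reference, in either direction. All 12 kept their call under every alternative processing that was run, in 165 of 165 fits. They were chosen as the largest called falls on these same arrays, and the sample channel is part of the ratio. The choice thus favours kept calls.

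**Figure D2:**
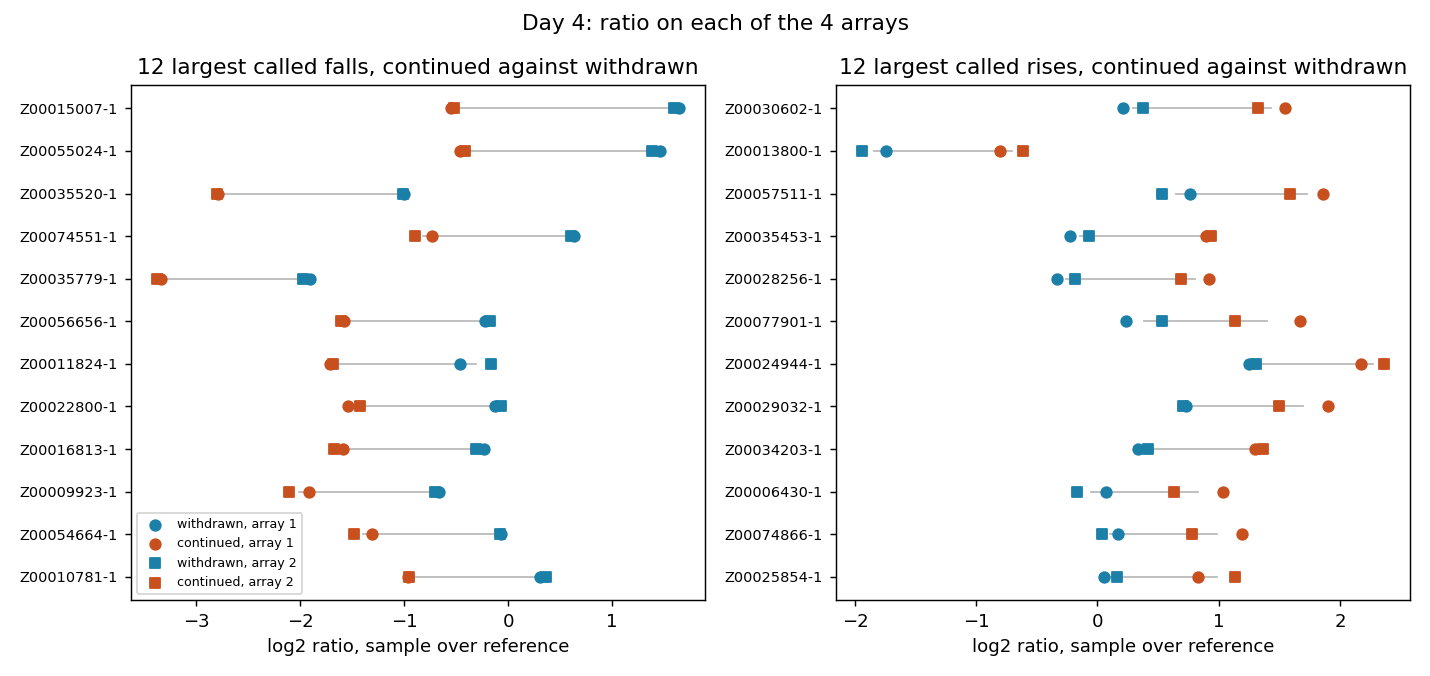
Log2 ratio of sample over reference on each of the 4 day 4 arrays for the 12 largest called falls (left) and rises (right); circles are first and squares second arrays, and grey lines join group means. The blue (withdrawn) and orange (continued) points do not overlap, as the rule that named these 24 probes required. Of all tested probes, 53.9% likewise have no overlap. The continued pairs are wider apart among the rises.

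Set against the other days, some of the falls had recovered after withdrawal, fewer had deepened under the drug, and the rest took neither course. These levels come from different slides, so a difference between days includes any difference between slides, and they are given as a description. Of the 273 probes at least 1.5-fold lower on day 4, 130 (47.6%) had risen at least 1.5-fold since day 2 in withdrawn cells and not moved that far in continued cells, against 2.45% of all probes tested. A further 42 (15.4%) had fallen that far in continued cells and not moved that far in withdrawn cells, against 1.33% of all. The 273 were chosen for their day 4 difference, and their median difference on day 2 was -0.03. The choice thus favours both of these moves, so their excess over all probes is not a separate result. In 30 both schedules had risen, in 6 both had fallen, in 64 neither had moved that far, and in 1 the schedules had moved in opposite directions.

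In the 130 recovering probes the median level relative to day 0 was -0.90 (log2) on day 2, -0.60 on day 3 and 0.12 on day 4 in withdrawn cells. In continued cells it was -0.88, -0.87 and -0.75. The choice of these probes fixes the rise from day 2 to day 4 in withdrawn cells and a smaller move in continued cells. It also favours low day 2 and high day 4 levels in withdrawn cells, which enter the distances from day 0. The day 3 levels did not enter the choice. Z00015007-1 followed this course, with means of 1.41 on day 0, -0.77, 0.01 and 1.62 on days 2, 3 and 4 after withdrawal, and -0.88, -0.69 and -0.53 with the drug. Z00055024-1 went from 1.24 on day 0 to -0.64, -0.01 and 1.42 after withdrawal and stayed at -0.68, -0.54 and -0.43 with the drug. Both were back near or above their day 0 level by day 4 without tamoxifen. Z00056656-1 recovered late: it read -1.77 on day 2 and still -1.40 on day 3 after withdrawal, and -0.20 on day 4, beside 0.00 on day 0.

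In the 42 deepening probes the median level relative to day 0 was -0.95, -0.85 and -1.0 on days 2, 3 and 4 in withdrawn cells, and -1.03, -1.23 and -1.90 in continued cells. Their choice likewise fixes the fall from day 2 to day 4 in continued cells and a smaller move in withdrawn cells. Z00009923-1 was at 0.79 on day 0, and at -0.33, -0.37 and -2.01 on days 2, 3 and 4 with the drug. Withdrawn cells were at -0.16, 0.17 and -0.68, so its level went down after day 3 under both schedules. Z00035779-1 read -2.50, -2.65 and -3.36 with the drug and -2.49, -2.15 and -1.94 without it, ending below its day 0 level of -0.66 either way. Z00035520-1 is the 1 probe that moved at least 1.5-fold in opposite directions, and read -2.13, -2.35 and -2.80 with the drug and -2.01, -1.55 and -1.01 without it, below its day 0 level of -0.21 under both. These 3 probes were still below day 0 after 3 days without tamoxifen.

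**Figure D3:**
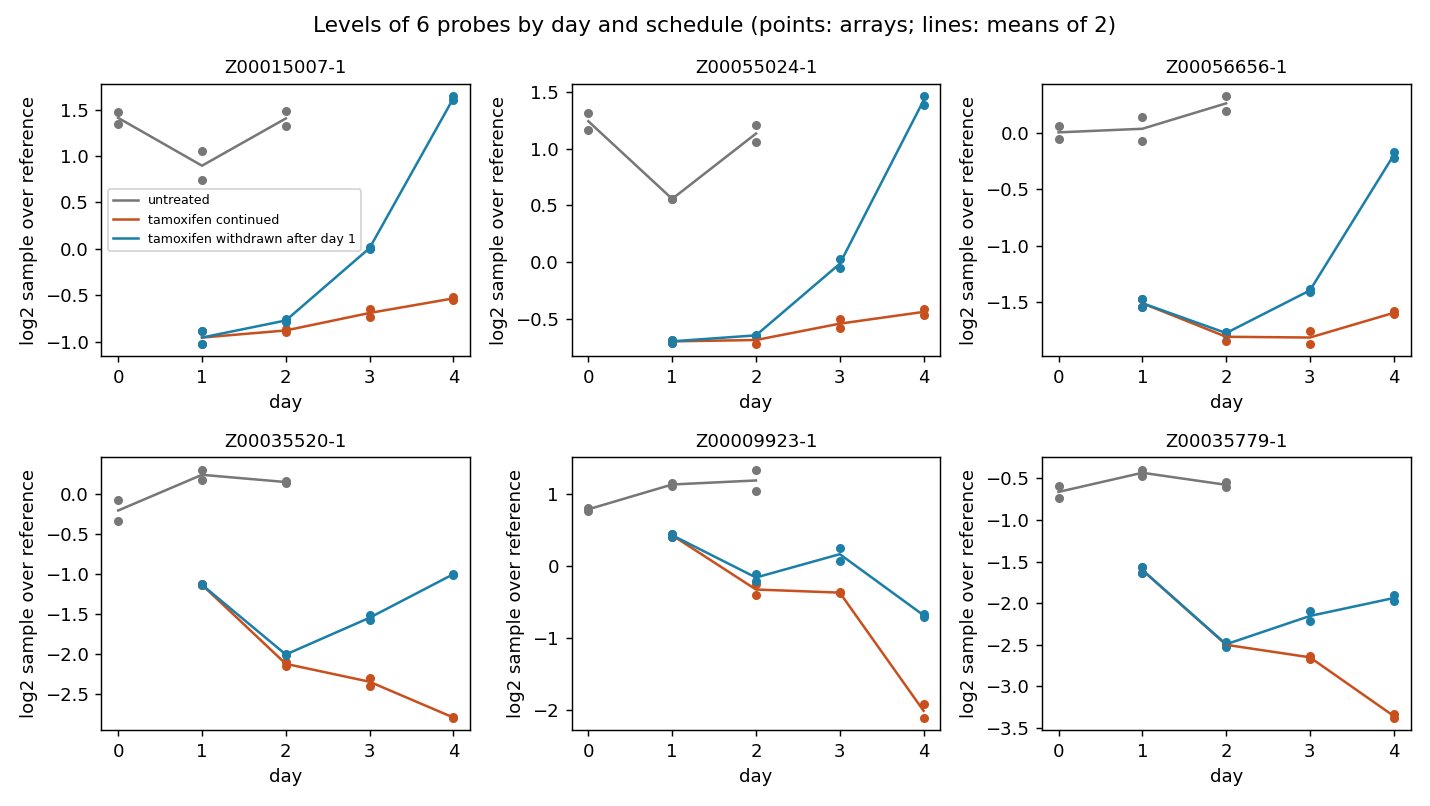
Log2 ratio of sample over reference by day for 6 probes lower in continued cells; points are single arrays, lines join means of 2 arrays, and both tamoxifen lines start from the shared day 1 group. In the top row withdrawn cells (blue) are nearer the untreated level (grey) on day 4 than on days 2 and 3, and in the bottom row continued cells (orange) are lowest on day 4.

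Fewer of the large day 4 falls than of all probes lay near their day 0 level on day 4, whether or not they had left it before. Of the 273 falls of at least 1.5-fold, withdrawn cells of day 4 lay within 1.5-fold of day 0 at 144 (52.7%) and continued cells at 89 (32.6%), against 85.0% and 82.8% of all probes tested. For the 95 rises of that size the counts were equal, 28 under each schedule (29.5%). The median rise among these 95 stood 1.13 above day 0 (log2) in continued cells and 0.38 above it in withdrawn cells. Since day 2, 35 of the 95 had fallen at least 1.5-fold in withdrawn cells only and 23 had risen that far in continued cells only. Choosing probes by their day 4 difference favours both moves.

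The largest rises reached 2.20-fold and were less evenly measured than the falls. Z00035453-1 was at -0.23 and -0.07 on the withdrawn arrays and at 0.90 and 0.94 on the continued ones, 2.09-fold higher (log2 1.06, SE 0.088, limma adjusted p = 2.8e-07). Z00024944-1 was at 1.25 and 1.31 against 2.18 and 2.37, 1.99-fold higher (log2 0.99, SE 0.079, adjusted p = 1.8e-07). Z00034203-1 was at 0.34 and 0.42 against 1.30 and 1.37, 1.94-fold higher (log2 0.95, SE 0.067, adjusted p = 4.4e-08). These 3, chosen by their calls on the same arrays, held their call in every alternative run, and their reference signals differed by -0.02 to 0.04. Over days 2, 3 and 4, Z00024944-1 held at 2.17, 2.09 and 2.27 with the drug and went from 2.07 to 1.66 and 1.28 after withdrawal, with 0.27 on day 0. Z00035453-1 went down under both schedules, from 1.57 to 0.92 with the drug and from 1.51 to -0.15 without it between days 2 and 4. Z00024944-1 thus kept its day 2 level with the drug, while Z00035453-1 lost ground under both schedules and more of it after withdrawal.

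Z00006430-1, Z00074866-1 and Z00025854-1 were each 1.84-fold higher. Their continued arrays differed by 0.40, 0.41 and 0.31, and their withdrawn arrays by 0.25, 0.13 and 0.10. With the local backgrounds as scanned, Z00006430-1 and Z00025854-1 no longer passed (adjusted p = 0.068 and 0.084).

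A short sequence recurred among the largest rises. It was noticed after the values were seen, so it is described and not tested. The run CCCTAACCC, which reads as the C-rich strand of the mammalian telomere repeat, was searched in the 60 bases of each probe as written, and its reverse complement GGGTTAGGG separately. It is in 16 of the 29414 tested probes (0.0544%), in 4 of the 12 largest rises, in 10 of the 95 rises of at least 1.5-fold (10.5%) and in 0 of the 273 falls of that size. The reverse complement is in 9 tested probes (0.0306%). The 12 called probes with the run are shown with up to 10 bases on each side, 5′ to 3′, the run in capitals. They are in order of their day 4 difference. In most of them a further C follows the run, and no printed flank holds a further complete telomere repeat. In Z00023497-1 the bases right after the run begin as the repeat would.
Z00030602-1: tcctacctagCCCTAACCCcttcctacgg
Z00057511-1: agatgtgtgaCCCTAACCCcttctgactc
Z00077901-1: cactCCCTAACCCcactgataga
Z00029032-1: ccaCCCTAACCCcaaactcaaa
Z00032151-1: ttcctcgcacCCCTAACCCtttgcttctt
Z00050677-1: ttgtcgggttCCCTAACCCctacctctga
Z00070483-1: atcCCCTAACCCccattgtaaa
Z00033234-1: ataccatcggCCCTAACCCctctctccca
Z00052605-1: cagagcttcaCCCTAACCCctttacatac
Z00023497-1: tgatgacctaCCCTAACCCtacagctaca
Z00066689-1: acaaagccttCCCTAACCCcatggaagcc
Z00024221-1: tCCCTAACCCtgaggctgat

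Of the 16 probes, 12 were called higher in continued cells and 0 lower, beside 5.73% of all probes called higher, and their median log2 difference was 0.81 against 0.01 over all probes. Z00030602-1, the largest rise of all, read 0.21 and 0.37 in withdrawn cells and 1.54 and 1.32 in continued cells, 2.20-fold higher (log2 1.14, SE 0.21, limma adjusted p = 0.0018). Z00057511-1 read 0.76 and 0.53 against 1.86 and 1.59, and Z00077901-1 read 0.23 and 0.53 against 1.67 and 1.14. The 4 probes not called had differences of -0.03 to 0.22. The 9 probes with the reverse complement had no common direction: 1 was called higher, 1 lower, and their median difference was 0.02.

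Other values moved with this rise. The reference signal, which comes from the same RNA on every array, was higher on the continued arrays at all 16 probes, by a median of 0.30 (log2), although 0 of the 16 passed on their own. The sample signal was higher by a median of 1.03. The standard errors of these probes had a median of 0.16 against 0.07 over all probes. The part of the shared sequence, of the hybridisation or of the reference in the rise was not tested.

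The 16 probes also set whole slides apart. Their median ratio was 1.07 to 2.01 on the 12 arrays of slides 1 to 3, under every schedule and without tamoxifen, and -0.15 to 0.22 on all 4 arrays of day 3. On the day 4 slide the withdrawn arrays gave 0.26 and 0.37 and the continued arrays 1.47 and 1.12. The continued arrays of day 4 were both below the day 0 and untreated arrays (1.49 to 2.01), and within the range of slides 1 to 3. The withdrawn arrays lay below that range and above all 4 arrays of day 3. The median day 3 difference between schedules was -0.05 and that of day 2 was 0.13. Without these probes 3592 probes were called on day 4.

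**Figure D4:**
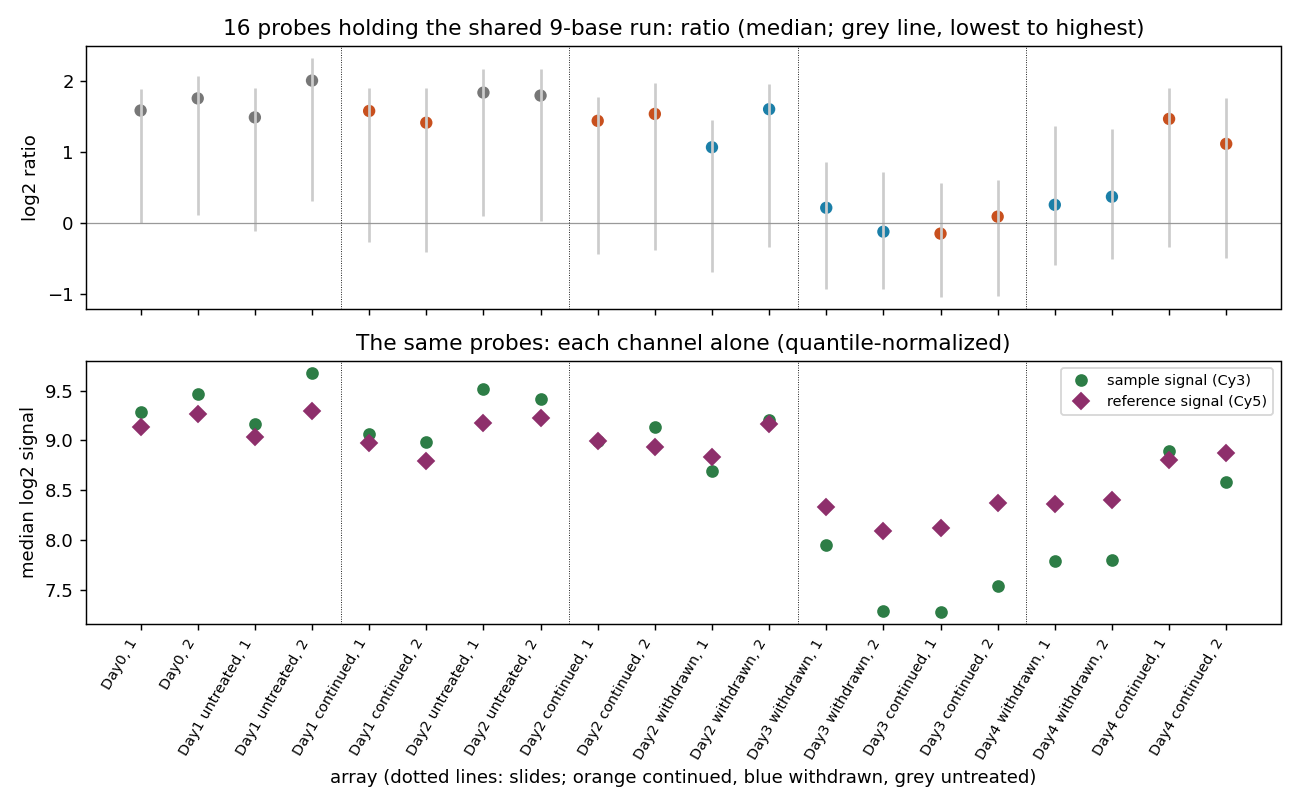
The 16 tested probes that hold the run described in the text, on all 20 arrays in slide order. Top, their median log2 ratio of sample over reference, with grey lines from lowest to highest probe; bottom, the median log2 signal of the sample and of the reference channel. Both channels are low on the 4 day 3 arrays and the 2 withdrawn day 4 arrays.

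All 12 of these calls were lost with the local backgrounds as scanned (adjusted p of 0.12 to 0.42). Z00030602-1, Z00057511-1 and Z00050677-1 also missed the threshold with Agilent's processed signals (adjusted p = 0.057, 0.16 and 0.095). Leaving out 1 day 4 array ended the call of Z00023497-1, Z00024221-1, Z00033234-1, Z00066689-1 and Z00070483-1. Without the first continued array each of these 5 missed the threshold (adjusted p of 0.053 to 0.21).

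Z00013800-1, with the second largest rise, holds the reverse complement: ttattggaaaGGGTTAGGGttgatagaat. It read -1.74 and -1.94 in withdrawn cells and -0.80 and -0.61 in continued cells, 2.20-fold higher (log2 1.13, SE 0.19, limma adjusted p = 0.0006). Its sample signal was higher by 0.52 (adjusted p = 0.12) and its log2 reference signal differed by -0.58 (adjusted p = 0.66), so the reference contributed about as much to the ratio as the sample did. Z00028256-1 holds neither run. It read -0.33 and -0.18 against 0.92 and 0.69, 2.09-fold higher (log2 1.06, SE 0.20, adjusted p = 0.0018). It missed the threshold with Agilent's processed signals, the series matrix and the backgrounds as scanned (adjusted p = 0.086, 0.068 and 0.16), where the first 2 gave a log2 difference of 1.71. Its day 3 means were -0.58 and -0.43, against 0.86 to 1.37 on the earlier days, a course like that of the 16 probes.

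Some pairs of probes overlap in sequence, and each pair measured the shared bases a second time. Among the tested probes, 992 pairs share 25 or more bases. In 828 pairs neither member was called, where 12.3% of all tested probes were called. In 103 pairs both members were called, all 103 in the same direction. Among these 103, chosen by both calls, the log2 differences lay a median of 0.03 apart. In 61 pairs 1 member was called, and in 57 of these the other had the same sign. The shared bases of both pairs with the shortest overlap among those at least 1.5-fold apart between schedules are given in capitals, 5′ to 3′.
Z00068950-1 and Z00077459-1: AGATTCTCCTGGCCAAAATTTCAAA
Z00042952-1 and Z00074150-1: GAGGCAGTGCTTTTTCTACTTTACTG

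Z00068950-1 and Z00077459-1 fell by 1.22 and by 1.24 on the log2 scale (limma adjusted p = 6.1e-09 and 6.8e-09), with withdrawn means of -1.61 and -1.59 and continued means of -2.82 and -2.84. Z00042952-1 and Z00074150-1 fell by 1.03 and by 1.16 (adjusted p = 1.1e-08 and 9.4e-09). Z00004889-1 and Z00075322-1, which share 32 bases, fell by 1.28 and by 1.26 (adjusted p = 6.2e-06 and 3.9e-09). Such pairs share part of their sequence and are not independent. Of the 11 pairs with both members at least 1.5-fold apart, 9 were lower and 2 higher in continued cells, beside 273 lower and 95 higher among all probes called at that size. The pair Z00064111-1 and Z00077980-1, sharing 50 bases, rose by 0.66 and 0.68.

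Probes called higher were fewer at high GC content. Median GC content was 45% among all tested probes and among those called lower, and 43.3% among those called higher. Of probes with over 55% GC, 2.08% were higher and 4.38% lower, against 7.49% and 6.57% of those with 35% GC or less. A CG dinucleotide was in 57.2% of all probes, in 60.5% of the lower and in 52.5% of the higher. The polyadenylation hexamer AATAAA, searched as written, was in 7.50% of all, 9.27% of the lower and 8.90% of the higher. It was in 14.7% (14 of 95) of the rises of at least 1.5-fold and in 7.33% (20 of 273) of the falls of that size.

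A few probes could be placed next to a gene. Exact matches of the 60 bases to RefSeq promoter windows (250 bases before to 50 after each gene's start, build GRCm38.p6) placed 196 tested probes, 95 on the strand of a gene and 109 opposite to one, and a probe in the windows of several genes can count under both. Of these, 14 were called (7.14%, below the 12.3% of all probes), 5 higher and 9 lower. A match is a position and does not assign the probe to that gene. The examples were chosen after their values were seen.

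Z00056199-1 lies at chr7:3665794-3665853 on the minus strand, from 13 bases before to 47 bases into the transcript of Leng1. It was higher by 0.29 (log2, SE 0.066, limma adjusted p = 0.0069). Without the first withdrawn array or without the second continued array it did not pass (adjusted p = 0.11 and 0.052). Z00024712-1 lies at chr9:107550975-107551034 on the plus strand, 197 to 138 bases before the start of Gm34106 and opposite to it. It was lower (log2 -0.58, SE 0.080, adjusted p = 9.4e-05). Z00031269-1 lies at chr8:20649115-20649174 on the plus strand, 213 to 154 bases before the start of Gm46074 and on its strand, and was higher by 0.53 (SE 0.083, adjusted p = 0.00034; over 1.5 times that with Agilent's processed signals). These 3 differences are small beside the falls named by size.

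To see when the difference arose, the same contrast was taken on days 2 and 3, on other arrays and slides. On day 2, after 1 day without the drug, 0 probes were called. On day 3, 153 were (0.52%), 108 lower (0.367%) and 45 higher (0.153%) in continued cells. Of the day 4 fallers, 1739 of 1920 (90.6%) already had a negative difference on day 3, with a median of -0.12 against -0.32 on day 4. Of the day 4 risers, 1578 of 1685 (93.6%) were positive on day 3, with a median of 0.12 against 0.29. Over all tested probes 67.0% had the same sign on both days. On day 2 the medians were -0.01 and 0.02, and the shares with the same sign 55.1% and 64.2%, against 51.0% of all probes. Both sets were chosen by their day 4 calls, which favours a larger median on day 4 than on the other days. The medians alone therefore do not measure growth.

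Of the day 4 falls of at least 1.5-fold, 271 of 273 were negative on day 3 and 89 were called there. Of the rises of that size, 82 of 95 were positive and 16 were called. All 12 of the largest falls were called on day 3 as well, with log2 differences of -0.80 to -0.33, and on day 2 they lay between -0.17 and 0.04. Of the 12 largest rises, Z00035453-1 (0.52, limma adjusted p = 0.011) and Z00024944-1 (0.43, adjusted p = 0.017) were called on day 3. The 4 named risers that hold the run had day 3 differences of -0.20 to 0.30. The 0.30 is that of Z00030602-1, whose withdrawn level on day 3 rests on 1 array, as the other value is missing.

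**Figure D5:**
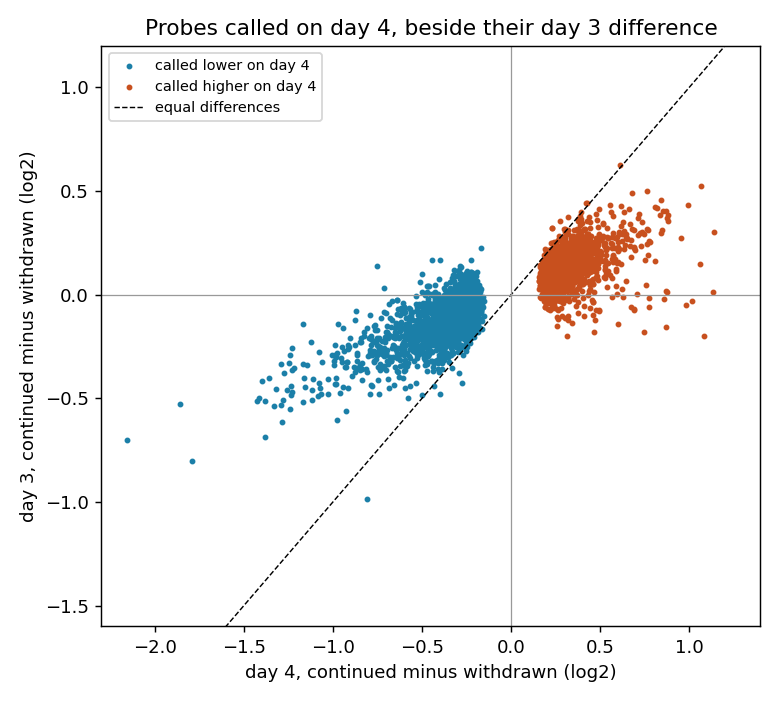
Log2 difference, continued minus withdrawn, on day 4 (horizontal) and day 3 (vertical) for the 3605 probes called on day 4, each point a probe; the dashed line marks equal differences. Most points lie between the dashed line and zero, so the day 3 difference had the same sign and was smaller. Choosing the probes by their day 4 calls favours a smaller day 3 difference. The rises near 1 on day 4 and near 0 on day 3 include probes with the shared run.

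The growth of the difference was tested directly. Between days 3 and 4 it changed at 230 probes (0.782%) and between days 2 and 4 at 1132 (3.85%). With the local backgrounds as scanned these counts were 34 and 250. For days 3 and 4, Agilent's processed signals gave 143. The series matrix gave 149 for the same days, of 18098 probes tested in place of 29414. Median centring gave 740 for days 2 and 4. Between days 3 and 4 it became more negative at 203 probes (0.69%) and more positive at 27 (0.0918%), and between days 2 and 4 at 734 (2.5%) and 398 (1.35%). Of the 203, 202 were called lower on day 4, and all 27 were called higher, by the same day 4 values. The probes named by size were chosen for their day 4 difference, which enters this change and favours a large one, so their values are a description. For Z00015007-1 the difference changed by -1.46 from day 3 to day 4 (SE 0.12) and for Z00055024-1 by -1.33 (SE 0.090). The 12 largest falls changed by -0.69 to -1.46, and among the 12 largest rises Z00034203-1 changed by 0.68 and Z00024944-1 by 0.56. The test for days 3 and 4 depended on single arrays: the count was 172 and 124 without the first or second withdrawn array of day 4, and 143 and 155 without the first or second continued array.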

How the data were processed

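RNA of the 20 samples (Cy3) was hybridised with a common reference RNA (Cy5) to 2-colour arrays of 60-base probes. The reference, per the labels' protocols, pools 11 mouse cell lines with 129 ES cell RNA. The deposited scanner files hold linear intensity values of both channels and spot flags. Per the file headers, the scanner software was Agilent Feature Extraction 9.5.1.1. The deposited series matrix holds log10 values of the sample channel for 25030 spots, which correlated with log10 processed sample signals at 0.9935 to 0.9973. Its normalization and centring by the authors are not given in the sources used here.

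Here, local backgrounds over 10 times the channel median were set to that median (12 spots, none on a day 4 array, a choice made in earlier work after seeing the data). Background correction was by normexp (offset 50), followed by loess within each array with control spots at weight 0, in limma 3.58.1 (R 4.3.3). Non-uniform spots were set to missing and the spots of a probe were averaged, which left 91 missing values among the tested probes. Tested probes (29414 of 42006) had a sample signal well above background on both arrays of 1 group or more. lmFit and eBayes fitted a group-means model over all 20 arrays (10 residual degrees of freedom), and calls are at a Benjamini-Hochberg adjusted p under 0.05. The model was tested on simulated data. The number of arrays, 2 in each group, limits the precision. For single channels, log2 signals were quantile-normalized.

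Where a gene name would stand, the files repeat the identifier, and 0 identifiers matched the supplied gene table (assembly GRCm38.p6). The gene lists and cell type markers prepared for this comparison were therefore not applied. Named by rule were the 12 largest called rises and falls among probes well above background on all 4 arrays with groups that do not overlap. The comparison, its lists and rules were chosen with earlier results of these data known. Probes were matched to promoter windows with pandas 2.3.3. Sequences longer than 30 bases are not printed.

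Replicate numbers 1 and 2 recur in both groups, but nothing in the labels ties samples of one number together. Alternatives were no background correction, backgrounds as scanned, Agilent's processed signals, median centring, the sample channel alone, the series matrix, filters on dim probes, only the groups compared, a replicate block, and leaving out each array.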

Additional observations from a re-analysis of the deposited data

Results flagged for a closer look

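The difference between continued and withdrawn cells itself differed between days, by the test of that difference in limma (adjusted p under 0.05). From day 3 to day 4 it changed at 230 probes and from day 2 to day 4 at 1132. Among the 12 largest falls it became more negative from day 3 to day 4 by these log2 amounts: -1.46 for Z00015007-1, -1.33 for Z00055024-1, -0.99 for Z00035520-1 and -0.98 for Z00056656-1. Z00016813-1 and Z00010781-1 both changed by -0.96. Z00074551-1 and Z00035779-1 both changed by -0.92, and Z00011824-1 and Z00054664-1 both by -0.87. Z00009923-1 changed by -0.79 and Z00022800-1 by -0.69. Among the 12 largest rises, Z00034203-1 became more positive by 0.68 and Z00024944-1 by 0.56. These probes were named for their day 4 difference, which enters the change, so a large change is favoured by the choice. Days 3 and 4 lie on different slides, each holding both schedules.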

How the results depend on the processing

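No called probe named in the text changed sign under any alternative run. The 12 largest falls kept their call in 165 of 165 fits, and the 12 largest rises in 151 of 163, with 4 of the 12 kept in all. Both sets were chosen by their calls on the same arrays, which favours kept calls. With the local backgrounds as scanned, counts dropped to 1117 on day 4, 250 for the change from day 2 and 34 for the change from day 3. That setting alters 1 untreated day 1 array and leaves the day 4 differences as they were. Agilent's processed signals gave 143 for the change from day 3. The series matrix gave 149 of 18098 probes tested, beside 230 of 29414 in the main run, so these counts have different bases. Median centring gave 740 for the change from day 2. The cause of the lower counts outside the series matrix was not tested. Leaving out 1 day 4 array gave 1931 to 2345 calls on day 4, 771 to 887 for the change from day 2 and 124 to 172 for that from day 3. Fewer arrays then enter a group. The reference channel gave 1 probe in place of 4 with only the 4 day 4 arrays. The other alternatives gave 2507 (the series matrix, of 18098 probes tested) to 4017 calls on day 4. Without the probes that hold the run (chosen after seeing the data) it was 3592. Replicate numbers are shared by name only: replicate deviations of the schedules correlated at 0.12 over probes, and with the replicate block 3148 probes were called, 865 for the change from day 2 and 154 for that from day 3. Signal over background limits dim probes: on both continued arrays 46 called probes were not well above background, and on both withdrawn arrays 32.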
